A study of Mus musculus with 7 samples.

Results

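The purinergic receptor set described here held 8 genes, chosen by name from the 47643 rows of the deposited table: the G protein-coupled receptors P2ry2, P2ry6, P2ry12, P2ry13 and P2ry14, the ATP-gated channels P2rx4 and P2rx7, and Entpd1, the ectonucleotidase known as CD39. P2ry12, P2ry13 and P2ry14 were included also because they lie within 1 Mb of Siah2. Expression was measured by poly(A) RNA-seq in 7 libraries of alveolar macrophages of the mouse, which patrol the surface of the air sacs and clear particles, surfactant and microbes. In 3 libraries (Lyz2cre) floxed Siah1a and Siah2 had been combined with Cre under Lyz2, the lysozyme gene of macrophages and neutrophils. In 1 library (CD11ccre) the same floxed alleles had been combined with Cre under the CD11c promoter, which is active in alveolar macrophages and dendritic cells. The other 3 libraries were labelled WT and positive for CD11c, F4/80 and SiglecF, with no statement of whether they carried Cre or floxed alleles. Siah1a and Siah2 encode RING-type ubiquitin ligases. The labels give no age, treatment or number of animals, so p-values measure the spread between libraries, which may be technical.

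Cells release ATP, ADP, UTP, UDP and UDP-glucose when stressed or damaged, and macrophages sense them through P2 receptors. P2X receptors are cation channels opened by ATP, and P2Y receptors couple to G proteins and respond to adenine or uracil nucleotides or to sugar nucleotides. Ectonucleotidases at the cell surface break these ligands down in steps to nucleosides, and adenosine then acts on its own receptors.

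Levels are in TPM, in which length-corrected shares of a library add up to 1000000, so levels of different genes can be set side by side. Read numbers are not kept in TPM, which leaves the depth unknown and gives no interval for counting error. All 8 genes passed the filter for testing, a mean of at least 1 TPM over the 7 libraries, as did 11397 genes in all. Log2 fold changes are of TPM + 1 and come from limma fitted over all these genes, with Benjamini-Hochberg adjusted p-values and a threshold of 0.05. They are given with their standard error (SE). The lone CD11ccre library was assumed to vary like the others. The Lyz2cre and CD11ccre comparisons share the WT libraries and are not independent.

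Siah1a was listed at 0, 0 and 0.05 TPM in the Lyz2cre libraries and at 0 TPM in CD11ccre, against 16.59, 6.72 and 13.35 TPM in WT. Siah2 stood at 1.95, 1.45 and 1.5 TPM in Lyz2cre, with 1.21 TPM in CD11ccre, against 13.56, 12.69 and 17.33 TPM in WT. Lyz2 stood at 46.62 to 61.89 TPM in Lyz2cre and 72.56 to 86.25 TPM in WT but at 50676 TPM in CD11ccre, so the CD11ccre library stood apart from the other 6 at the Lyz2 locus. All 12 alveolar macrophage markers averaged at least 1 TPM, but 4 of them rose and 3 fell in Lyz2cre against WT (58.3%, beside 6.76% of all tested genes), and 3 rose and 3 fell in CD11ccre (50%, beside 2.89%). Siglecf, a marker named in the WT labels, fell to 84.5 TPM ± 20.8 in Lyz2cre and 53.87 TPM in CD11ccre, against 231 TPM ± 23.3 in WT (SD, n = 3 each for Lyz2cre and WT; limma adjusted p = 0.00746 and 0.0136). Itgax (CD11c) and Adgre1 (F4/80) were not called. Chil3, Car4 and Fabp4 rose and Ear2 and Fabp1 fell in both lines, and the part of these marker changes in the levels below was not tested. In CD11ccre the loss of any other library ended the Fabp4 call (limma adjusted p up to 0.0907), any but WT replicate 2 the Car4 call (up to 0.0667), and WT replicate 2 or 3 the Fabp1 call (up to 0.0632). In Lyz2cre WT replicate 1 or any Lyz2cre library ended the Marco call (limma adjusted p up to 0.0828), and WT replicate 2 or Lyz2cre replicate 3 the Fabp4 call (up to 0.0630). The median log2 fold change of all tested genes was -0.16 in Lyz2cre and -0.29 in CD11ccre against WT, and with median-of-ratios scaling it was 0.00 in both, so the fold changes below are read against those medians. No pair of the 7 libraries had more than 1.79% identical values over the tested genes.

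The promoters of P2rx4, the gene among the 8 whose level passed the test, and of the P2Y receptors near Siah2 are shown from RefSeq on the GRCm38.p6 build, each a window of 300 bases over a transcription start (for P2ry14, the one of 4 listed starts nearest to the gene's annotated 5′ end). P2rx4 has chr5:122707294-122707593 on the plus strand, and on the minus strand P2ry12 has chr3:59262936-59263235, P2ry13 has chr3:59210833-59211132 and P2ry14 has chr3:59153443-59153742. Capitals mark matches on either strand to the letters CACGTG (bound by the lysosomal regulator TFEB), GAGGAA (bound by the macrophage factor PU.1), TGACNNNGC (the core of the NRF2 element) and ACGTG (the core of the hypoxia response element, which also lies inside CACGTG).
P2rx4: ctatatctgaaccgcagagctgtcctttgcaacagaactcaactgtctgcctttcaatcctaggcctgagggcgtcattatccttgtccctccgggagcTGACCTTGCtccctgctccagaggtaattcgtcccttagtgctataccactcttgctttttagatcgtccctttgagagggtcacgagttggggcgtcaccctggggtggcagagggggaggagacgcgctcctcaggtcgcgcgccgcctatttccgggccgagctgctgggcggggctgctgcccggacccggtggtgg
P2ry12: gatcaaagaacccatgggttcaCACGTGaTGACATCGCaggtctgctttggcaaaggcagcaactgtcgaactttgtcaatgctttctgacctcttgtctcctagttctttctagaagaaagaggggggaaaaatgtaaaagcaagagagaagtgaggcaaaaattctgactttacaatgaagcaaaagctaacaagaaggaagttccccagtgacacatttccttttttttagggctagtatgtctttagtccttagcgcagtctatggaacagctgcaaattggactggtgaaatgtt
P2ry13: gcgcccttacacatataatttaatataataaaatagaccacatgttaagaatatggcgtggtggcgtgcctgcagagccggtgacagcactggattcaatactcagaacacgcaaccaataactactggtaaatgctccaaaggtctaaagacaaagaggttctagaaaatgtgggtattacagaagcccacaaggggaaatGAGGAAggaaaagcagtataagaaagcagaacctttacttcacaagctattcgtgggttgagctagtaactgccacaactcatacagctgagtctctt
P2ry14: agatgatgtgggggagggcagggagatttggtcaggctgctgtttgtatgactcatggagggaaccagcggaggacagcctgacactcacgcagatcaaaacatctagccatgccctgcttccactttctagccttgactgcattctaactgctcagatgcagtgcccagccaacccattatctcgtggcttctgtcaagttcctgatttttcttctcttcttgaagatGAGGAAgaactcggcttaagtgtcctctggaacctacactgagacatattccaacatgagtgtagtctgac

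The P2rx4 promoter held 1 match to TGACNNNGC, which occurs in 12.4% of 32851 RefSeq promoters of the same length. The P2ry12 promoter held 1 CACGTG (7.15% of promoters, with ACGTG inside it; ACGTG occurs in 19.6%) next to 1 TGACNNNGC. P2ry13 and P2ry14 each held 1 GAGGAA, found in 28.3% of promoters, and none of the other letters. The P2rx4 window was 60.3% G and C, against 42.3% for P2ry12 and P2ry13 and 49.3% for P2ry14. Of the other 4 genes, the RefSeq table held promoters of P2rx7, P2ry2 and Entpd1, with at most 1 match to each of TGACNNNGC, GAGGAA and CACGTG.

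In WT macrophages the order of levels was P2ry14 (75.8 TPM ± 15.1), P2rx4 (60.0 TPM ± 6.53), P2ry13 (44.6 TPM ± 3.02), P2ry6 (39.1 TPM ± 6.13), Entpd1 (30.4 TPM ± 5.07), P2rx7 (20.7 TPM ± 3.07), P2ry2 (12.8 TPM ± 1.71) and P2ry12 (11.2 TPM ± 0.878; SD, n = 3 each). The ranges over the WT libraries overlapped between P2ry14 and P2rx4, between P2ry13 and P2ry6, between P2ry6 and Entpd1, and between P2ry2 and P2ry12, while the other neighbours in this order were separate. P2ry14 lay above 84.0% of the tested genes in WT and P2ry12 above 41.9%. In Lyz2cre P2rx4 came first (131 TPM ± 9.49, SD, n = 3), above P2ry14 (82.4 TPM ± 9.36, SD, n = 3) with no overlap of their ranges, and P2ry12 again came last (6.67 TPM ± 1.14, SD, n = 3). In CD11ccre P2rx4 also came first, at 89.28 TPM, and P2ry12 last, at 5.40 TPM. Summed over the 8 genes, the Lyz2cre libraries held 339, 341 and 358 TPM and CD11ccre held 295 TPM, against 326, 258 and 299 TPM in WT.

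**Figure D1:**
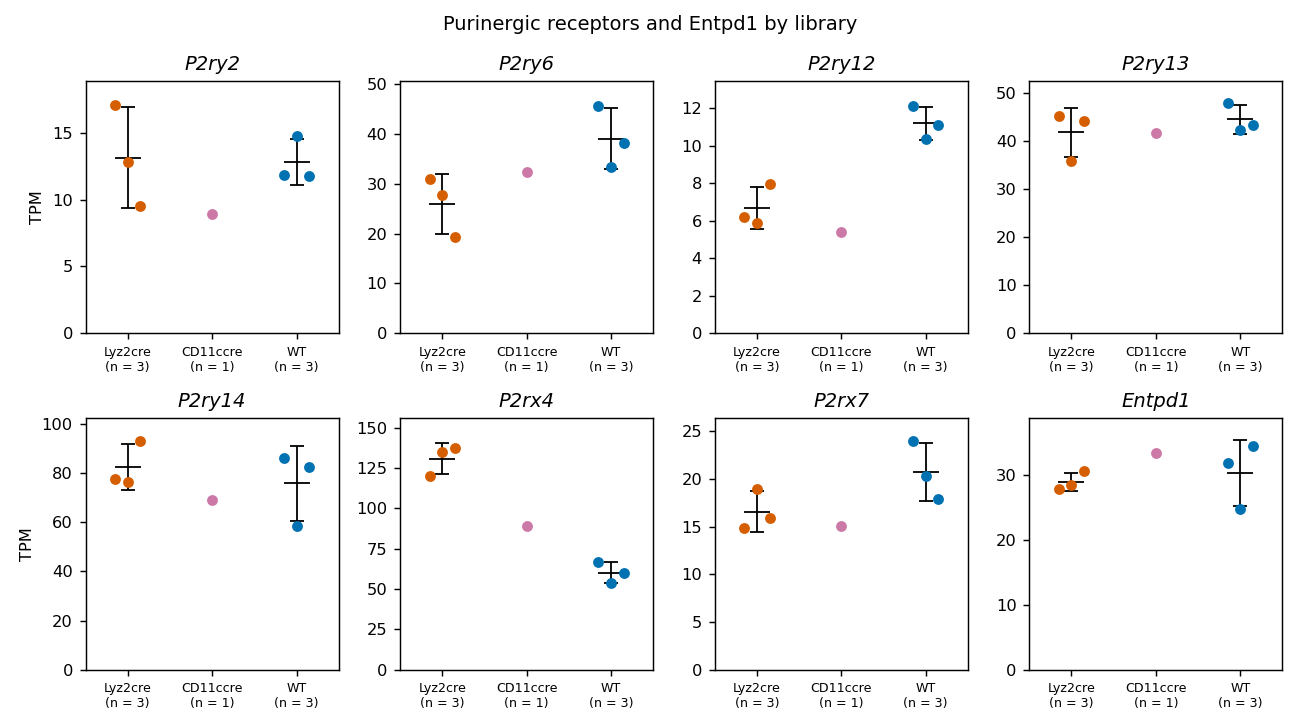
TPM of each of the 8 genes by library, with a point per library, the 3 groups on the x axis, and for Lyz2cre and WT a bar at the mean with 1 SD. The P2rx4 points of Lyz2cre, from 119.80 to 137.32 TPM, lie above those of WT, from 53.55 to 66.61 TPM, with CD11ccre between them at 89.28 TPM, and the P2ry12 points of both deleted lines lie below those of WT.

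P2rx4 encodes an ATP-gated cation channel that macrophages and microglia hold largely in lysosomes and bring to the surface on activation. It stood at 119.80, 134.88 and 137.32 TPM in Lyz2cre, with 89.28 TPM in CD11ccre, against 66.61, 53.55 and 59.75 TPM in WT. All 3 Lyz2cre libraries were above all 3 WT libraries, and the CD11ccre library lay above the WT libraries and below the Lyz2cre libraries. The mean in Lyz2cre was 2.18 times that in WT, and P2rx4 rose with a log2 fold change of 1.11 ± 0.13 (SE, limma adjusted p = 0.00525). In CD11ccre the level was 1.49 times the WT mean, with a log2 fold change of 0.57 ± 0.18 (SE, limma adjusted p = 0.124). CD11ccre against Lyz2cre gave -0.54 ± 0.18 (SE, limma adjusted p = 0.788), with a 95% interval from -0.96 to -0.13 before adjustment, so the difference between the Cre lines did not pass.

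P2rx4 was the only one of the 8 genes past the threshold in Lyz2cre against WT, 1 higher and 0 lower, where 6.76% of all tested genes passed, 2.17% higher and 4.6% lower. At an unadjusted p under 0.05 limma held 3 of the 8, P2rx4 higher and P2ry12 and P2ry6 lower, beside 24.6% of tested genes, 5.96% higher and 18.7% lower. In CD11ccre against WT 0 of the 8 passed limma's test, where 2.89% of tested genes passed, 0.895% higher and 1.99% lower. At an unadjusted p under 0.05 that comparison held P2rx4 higher and P2ry12 lower, beside 22.3% of tested genes, 3.45% higher and 18.8% lower. CD11ccre against Lyz2cre called 0 of the 8 in limma, beside 0.114% of tested genes, 0.0439% higher and 0.0702% lower. There P2rx4 alone, lower in CD11ccre, had an unadjusted p under 0.05, as 6.1% of tested genes did, 1.22% higher and 4.88% lower. With 8 genes, 1 call is too few to set against these shares. The median log2 fold change of the 8 genes was -0.07 in Lyz2cre and -0.18 in CD11ccre, beside -0.16 and -0.29 for all tested genes.

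**Figure D2:**
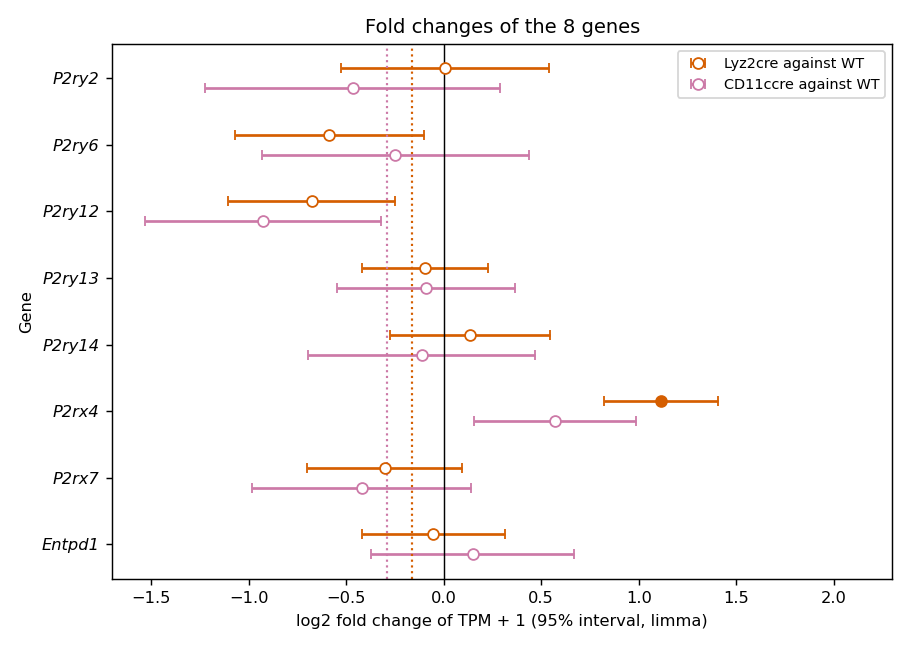
Log2 fold change of TPM + 1 with its 95% interval from limma for each of the 8 genes, Lyz2cre against WT above CD11ccre against WT in each row; filled points passed an adjusted p of 0.05 and dotted lines mark the medians of all tested genes (-0.16 in Lyz2cre, -0.29 in CD11ccre). The one filled point is P2rx4 in Lyz2cre, at 1.11.

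P2rx7, the ATP channel that opens at high ATP and drives potassium efflux and the NLRP3 inflammasome, lies beside P2rx4. P2rx7 spans chromosome 5 from 122643911 to 122691432 and P2rx4 spans 122707544 to 122729738 on the same plus strand (GRCm38), a gap of 16.1 kb. P2rx7 stood at 14.82, 18.98 and 15.93 TPM in Lyz2cre, with 15.11 TPM in CD11ccre, against 23.97, 20.25 and 17.88 TPM in WT. Lyz2cre and WT overlapped, and CD11ccre lay below all WT libraries. The log2 fold change was -0.30 ± 0.17 in Lyz2cre (SE, limma adjusted p = 0.320; 95% interval -0.70 to 0.10) and -0.42 ± 0.24 in CD11ccre (SE, limma adjusted p = 0.344). P2rx7 shares 119 exonic bases with the microRNA feature Mir8115 on the same strand, whose own row averaged 3.03 TPM, and how reads over the shared bases were assigned is not known.

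The ratio of P2rx4 to P2rx7 within a library does not depend on how libraries are scaled to each other. It was 8.08, 7.11 and 8.62 in Lyz2cre, with 5.91 in CD11ccre, against 2.78, 2.64 and 3.34 in WT. The 3 Lyz2cre ratios were all above the WT ratios, and the CD11ccre ratio lay between the groups. A two-sided exact permutation test on log2 ratios, Lyz2cre against WT, gave p = 0.1, the smallest that 3 against 3 libraries allow, and 0.125 after adjustment over the 5 ratios computed, which were chosen after the values were seen.

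**Figure D3:**
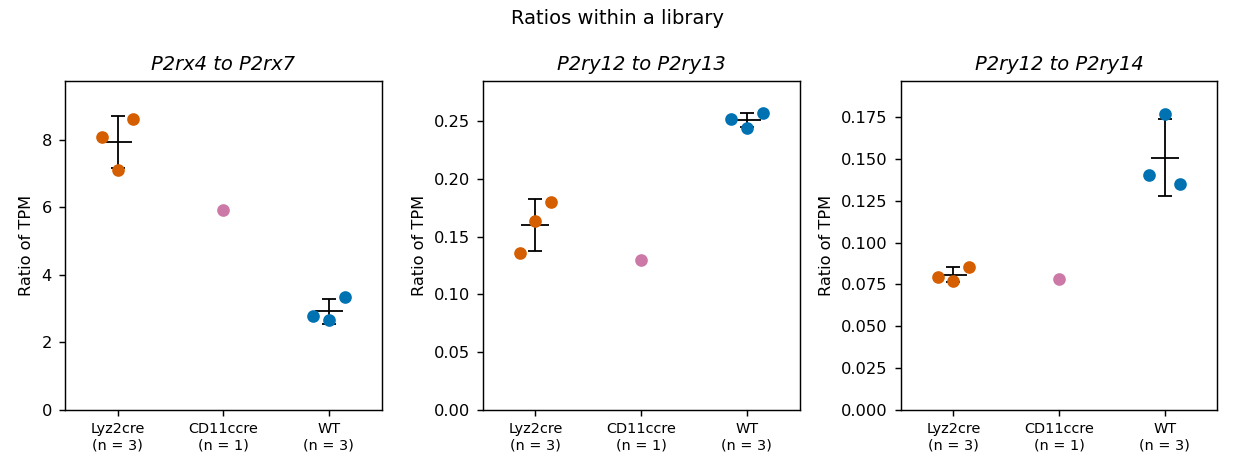
Ratio of TPM within each library for P2rx4 to P2rx7, P2ry12 to P2ry13 and P2ry12 to P2ry14, with a point per library and, for Lyz2cre and WT, the mean with 1 SD. In each panel the Lyz2cre points are separate from the WT points, and for P2rx4 to P2rx7 they lie at 7.11 to 8.62 in Lyz2cre and 2.64 to 3.34 in WT.

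P2ry12, P2ry13 and P2ry14 stand in a row on the minus strand of chromosome 3, at 59216272 to 59262871, 59207892 to 59210882 and 59113855 to 59153618 (GRCm38), with gaps to Siah2 of 523.9, 515.5 and 421.5 kb on the side of its transcription start. All 3 lie inside the span of Med12l, a Mediator subunit gene on the opposite strand, and P2ry12 shares 9 exonic bases with it. Med12l averaged 0.270 TPM over the 7 libraries. The longest run of bases shared exactly by transcripts of any 2 of the 8 genes was 21, against a read length of 75, so no whole read fits 2 of them.

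P2ry12, the ADP receptor of platelets and of resting microglia and the target of the drug clopidogrel, stood at 6.17, 5.87 and 7.97 TPM in Lyz2cre, with 5.40 TPM in CD11ccre, against 12.11, 10.36 and 11.12 TPM in WT. All Lyz2cre libraries and the CD11ccre library were below all WT libraries. The Lyz2cre mean was 0.596 times the WT mean and the CD11ccre level 0.482 times. P2ry12 did not pass in either line: the log2 fold change was -0.68 ± 0.18 in Lyz2cre (SE, limma adjusted p = 0.0717; 95% interval -1.10 to -0.25) and -0.93 ± 0.26 in CD11ccre (SE, limma adjusted p = 0.0980). Over 18 alternative settings the adjusted p in Lyz2cre ran from 0.0520 to 0.2 and the log2 fold change from -0.79 to -0.48.

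P2ry12 is also a platelet gene. Of 10 platelet markers, 1 averaged at least 1 TPM, and Gp9 and Gp6 were listed at 0 in every library. Their summed level ran from 1.98 to 7.31 TPM in Lyz2cre and was 1.87 TPM in CD11ccre, against 5.32 to 11.3 TPM in WT. Pf4, the chemokine of platelet granules and the marker with the highest mean, had 5.29, 2.10 and 0.71 TPM in Lyz2cre, 0.71 TPM in CD11ccre and 3.25, 9.40 and 5.14 TPM in WT (limma adjusted p = 0.292 for Lyz2cre against WT). The part of platelet RNA in the P2ry12 level was not tested. Of the microglia markers, Sall1 was listed at 0 in every library. In bulk RNA, fewer cells of a type and less RNA per cell cannot be told apart.

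P2ry13, the other Gi-coupled ADP receptor of this cluster, stood at 45.29, 35.88 and 44.19 TPM in Lyz2cre, with 41.74 TPM in CD11ccre, against 48.01, 42.37 and 43.31 TPM in WT. Lyz2cre and WT overlapped, and CD11ccre lay just below the lowest WT library. The log2 fold change in Lyz2cre was -0.10 ± 0.14 (SE, limma adjusted p = 0.723; 95% interval -0.42 to 0.23), and its sign turned with median-of-ratios scaling, to 0.08. In CD11ccre it was -0.09 ± 0.20 (SE, limma adjusted p = 0.820), turned to 0.22 by that scaling. P2ry14, the receptor for UDP-glucose and the most abundant of the 8 in WT, stood at 77.51, 76.46 and 93.18 TPM in Lyz2cre, with 68.96 TPM in CD11ccre, against 86.33, 58.51 and 82.46 TPM in WT. Lyz2cre overlapped WT, and CD11ccre lay inside the WT range but below all Lyz2cre libraries. The P2ry14 log2 fold change in Lyz2cre was 0.13 ± 0.18 (SE, limma adjusted p = 0.692; 95% interval -0.28 to 0.54). For P2ry14 in CD11ccre it was -0.11 ± 0.25 (SE, limma adjusted p = 0.822), turned to 0.20 by median-of-ratios scaling.

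Within libraries, the ratio of P2ry12 to P2ry13 was 0.136, 0.164 and 0.180 in Lyz2cre, with 0.129 in CD11ccre, against 0.252, 0.245 and 0.257 in WT. The ratio of P2ry12 to P2ry14 was 0.0796, 0.0768 and 0.0855 in Lyz2cre, with 0.0783 in CD11ccre, against 0.140, 0.177 and 0.135 in WT. Every deleted library was below every WT library in both ratios. For each, an exact permutation test between Lyz2cre and WT gave p = 0.1 (0.125 adjusted over the 5 ratios). The ratio of P2ry13 to P2ry14 averaged 0.509 ± 0.0650 in Lyz2cre and 0.602 ± 0.107 in WT (SD, n = 3 each; exact permutation p = 0.3), with overlapping ranges.

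P2ry2 and P2ry6 are Gq-coupled receptors next to each other on the minus strand of chromosome 7 (100996568 to 101012866 and 100937630 to 100974649, GRCm38), 21.9 kb apart. P2ry6, the UDP receptor known to promote phagocytosis in microglia, stood at 30.91, 27.68 and 19.30 TPM in Lyz2cre, with 32.47 TPM in CD11ccre, against 45.59, 33.42 and 38.24 TPM in WT. All Lyz2cre libraries lay below all WT libraries, and CD11ccre lay just below the lowest WT library. The log2 fold change was -0.59 ± 0.21 in Lyz2cre (SE, limma adjusted p = 0.137) and -0.25 ± 0.29 in CD11ccre (SE, limma adjusted p = 0.653), where its sign turned with median-of-ratios scaling, to 0.06.

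P2ry2, the ATP and UTP receptor, stood at 17.09, 12.80 and 9.54 TPM in Lyz2cre, with 8.95 TPM in CD11ccre, against 11.85, 14.79 and 11.81 TPM in WT. The Lyz2cre libraries spread to both sides of WT, and CD11ccre lay below all WT libraries. Its log2 fold change was 0.01 ± 0.23 in Lyz2cre (SE, limma adjusted p = 0.992; 95% interval -0.53 to 0.54) and -0.47 ± 0.32 in CD11ccre (SE, limma adjusted p = 0.433). The ratio of P2ry6 to P2ry2 averaged 2.00 ± 0.178 in Lyz2cre, was 3.63 in CD11ccre and averaged 3.11 ± 0.801 in WT (SD, n = 3 each for Lyz2cre and WT; exact permutation p = 0.1, Lyz2cre against WT), so CD11ccre did not share the low ratio of Lyz2cre.

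Entpd1 (chromosome 19, 40612366 to 40741602, plus strand, GRCm38) hydrolyses extracellular ATP and ADP to AMP. It stood at 27.87, 28.48 and 30.60 TPM in Lyz2cre, with 33.46 TPM in CD11ccre, against 31.82, 24.74 and 34.57 TPM in WT. The Lyz2cre and CD11ccre values all fell inside the WT range. The log2 fold change in Lyz2cre was -0.05 ± 0.16 (SE, limma adjusted p = 0.875; 95% interval -0.42 to 0.31), with the sign turned to 0.13 by median-of-ratios scaling, and in CD11ccre it was 0.15 ± 0.22 (SE, limma adjusted p = 0.733).

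Lyz2cre and WT ranges did not overlap for 3 of the 8 genes, P2rx4 higher and P2ry12 and P2ry6 lower, while the same held for 30.8% of all tested genes, 7.45% higher and 23.3% lower. CD11ccre lay outside the WT range for 6 of the 8, P2rx4 above it and 5 below it (P2ry2, P2ry6, P2ry12, P2ry13 and P2rx7), where 63.5% of tested genes did, 13% above and 50.5% below.

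Around Siah2, 51 annotated genes within 1 Mb had a row in the table, 20 had a value above 0 in some library and 12 were tested. Erich6, a glutamate-rich protein gene 37.7 kb from Siah2 on the side of its transcript end, rose in both lines, with 15.50, 8.67 and 9.48 TPM in Lyz2cre, with 9.08 TPM in CD11ccre, against 0, 0.44 and 0 TPM in WT (limma adjusted p = 0.00251 and 0.0180). The Erich6 call in CD11ccre ended without WT replicate 1 (limma adjusted p = 0.0526). The other 11 tested neighbours, the 3 P2Y receptors among them, were not called, and the median of the 12 was -0.14 in Lyz2cre. The 1 call among 12 stands beside 6.76% of all tested genes in Lyz2cre and 2.89% in CD11ccre. At an unadjusted p under 0.05 limma held 6 of the 12 in Lyz2cre, beside 24.6% of tested genes, and 3 of the 12 in CD11ccre, beside 22.3%. Of the 6 in Lyz2cre, Erich6 was higher and P2ry12, Gpr171, Selenot, Serp1 and Eif2a lower, beside 5.96% of tested genes higher and 18.7% lower. Between Siah2 and the receptor cluster the pseudogene Rpl13-ps6 was tested, at 0.940 TPM ± 0.415 in Lyz2cre and 1.21 TPM ± 0.563 in WT (SD, n = 3 each).

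Gpr171, a G protein-coupled receptor gene beside P2ry14 in the same cluster, averaged 2.26 TPM ± 0.912 in Lyz2cre and 4.67 TPM ± 1.56 in WT (SD, n = 3 each; limma adjusted p = 0.194), with overlapping ranges. On the other side of Siah2, Selenot, a selenoprotein of the endoplasmic reticulum, averaged 99.8 and 137 TPM (limma adjusted p = 0.106), Serp1 138 and 177 TPM (0.122), Eif2a 47.7 and 58.4 TPM (0.187), Tsc22d2 10.7 and 9.68 TPM (0.813) and Rnf13 127 and 119 TPM (0.836), each in Lyz2cre and in WT. For Selenot, Serp1 and Eif2a all Lyz2cre libraries and the CD11ccre library (96.29, 139.77 and 49.19 TPM) lay below all WT libraries. The Lyz2cre range lay below the WT range for 23.3% of all tested genes. The pseudogene Gm5537 was listed at 0 in 2 of the WT libraries and at 19.16 TPM in the other, against 8.32 to 12.15 TPM in Lyz2cre (adjusted p = 0.285), and passed without WT replicate 2 (limma adjusted p = 0.00799). Around Siah1a, on chromosome 8, 4 genes within 1 Mb were tested. In Lyz2cre limma called 0 of them, beside 6.76% of all tested genes, with 1 at an unadjusted p under 0.05, beside 24.6%. Their median log2 fold change was -0.26 in Lyz2cre and -0.64 in CD11ccre, beside -0.16 and -0.29 for all tested genes.

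**Figure D4:**
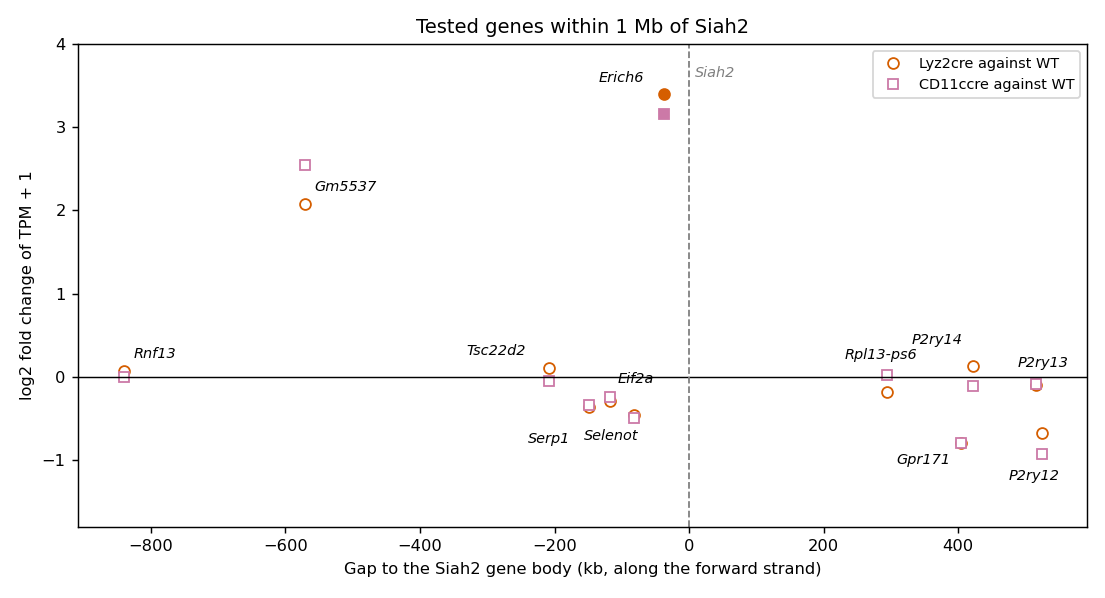
Log2 fold change of TPM + 1 of the 12 tested genes within 1 Mb of Siah2 against their gap to it in kb along the forward strand, circles for Lyz2cre against WT and squares for CD11ccre against WT; filled symbols passed an adjusted p of 0.05. The filled symbols belong to Erich6, and P2ry14, P2ry13 and P2ry12 at 421.5, 515.5 and 523.9 kb are open.

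The other genes of purinergic signalling, from 8 lists with 89 genes, had 55 tested members, of which 3 rose, 2 fell and 50 were not called in Lyz2cre against WT (9.09% called, beside 6.76% of all tested genes). In CD11ccre against WT 1 rose, 1 fell and 53 were not called (3.64%, beside 2.89%). The median log2 fold change of these 55 genes was -0.02 in Lyz2cre and -0.24 in CD11ccre. In CD11ccre against Lyz2cre 0 of the 55 were called by limma, beside 0.114% of all tested genes. At an unadjusted p under 0.05 that comparison held 6 of the 55, beside 6.1% of all tested genes.

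Of the other P2 receptors, P2ry10 and P2rx5 were tested and neither passed. P2ry10, a lysophosphatidylserine receptor of the P2Y-related group, stood at 4.20, 2.20 and 3.38 TPM in Lyz2cre, with 1.82 TPM in CD11ccre, against 7.83, 7.38 and 5.70 TPM in WT (limma adjusted p = 0.0812 and 0.0771). Its deleted libraries were all below the WT libraries, as for P2ry12. P2rx1, P2rx2, P2rx6 and P2ry4 were listed at 0 in every library. Of the adenosine receptors Adora3 alone was tested, averaging 7.48 TPM ± 1.91 in Lyz2cre and 3.98 TPM ± 0.854 in WT (SD, n = 3 each; limma adjusted p = 0.120), with 2.87 TPM in CD11ccre.

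Among the other ectonucleotidases Enpp4, a phosphodiesterase that cleaves dinucleotide polyphosphates, rose in both lines and the other 6 tested were not called. In Lyz2cre that was 14.3% of the list's tested genes, beside 6.76% of all tested genes. Enpp4 stood at 9.61, 10.07 and 12.59 TPM in Lyz2cre, with 13.91 TPM in CD11ccre, against 4.07, 4.38 and 3.6 TPM in WT (log2 fold change 1.22 ± 0.18 in Lyz2cre, SE, limma adjusted p = 0.0126, and 1.57 ± 0.26 in CD11ccre, limma adjusted p = 0.0304). The Lyz2cre call ended without Lyz2cre replicate 3 (limma adjusted p = 0.0601), and the CD11ccre call ended when any of the 6 other libraries was left out (0.0516 to 0.0679). Nt5e (CD73), which turns the AMP made by Entpd1 into adenosine, stood at 18.70, 17.02 and 14.14 TPM in Lyz2cre, with 11.89 TPM in CD11ccre, against 6.83, 7.29 and 13.31 TPM in WT, and did not pass (limma adjusted p = 0.10 in Lyz2cre).

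In the list of P2X7 partners and the inflammasome, 1 of 9 tested genes rose and 1 fell in Lyz2cre. That was 22.2% called by limma, beside 6.76% of all tested genes, 2.17% higher and 4.6% lower. Il1b, the cytokine released downstream of P2X7, rose 2.57 times (limma adjusted p = 0.0228), and the CD11ccre library had 60.11 TPM, just above the highest WT library at 59.92 TPM. The Il1b call ended without WT replicate 1 (limma adjusted p = 0.0752), WT replicate 3 (0.0613), Lyz2cre replicate 1 (0.0789) or Lyz2cre replicate 2 (0.0790), and also with no filter (0.0856) or no trend (0.0520). Nek7, which binds NLRP3 after potassium efflux, stood at 31.89, 26.98 and 29.56 TPM in Lyz2cre, with 28.72 TPM in CD11ccre, against 44.87, 42.08 and 43.28 TPM in WT. It fell by 0.55 on the log2 scale in Lyz2cre (limma adjusted p = 0.0449), a call that did not outlast the loss of any single Lyz2cre or WT library (0.0761 to 0.135), median-of-ratios scaling (0.143), no filter (0.0504) or no trend (0.0783). Nlrp3 itself averaged 79.9 TPM ± 9.47 in Lyz2cre and 63.8 TPM ± 6.53 in WT (SD, n = 3 each; limma adjusted p = 0.201). Pycard of the same list went the other way without passing, at 45.4 TPM ± 9.77 in Lyz2cre and 69.8 TPM ± 15.4 in WT (SD, n = 3 each; limma adjusted p = 0.125). CD11ccre had 44.8 TPM of Pycard, and all deleted libraries lay below the WT libraries. The median log2 fold change of the 9 genes was -0.30 in Lyz2cre.

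Among G proteins and effectors of P2Y receptors, 1 of 18 tested genes rose and 1 fell in Lyz2cre (11.1% called, beside 6.76% of all tested genes). Plcb1, a phospholipase C activated by Gq, stood at 2.36, 2.61 and 2.23 TPM in Lyz2cre, with 1.81 TPM in CD11ccre, against 7.46, 8.22 and 7.29 TPM in WT (log2 fold change -1.35 ± 0.20 in Lyz2cre, SE, limma adjusted p = 0.0126, and -1.62 ± 0.29 in CD11ccre, limma adjusted p = 0.0360). The Lyz2cre call ended without Lyz2cre replicate 3 (limma adjusted p = 0.0567). In CD11ccre it ended when any of the 6 other libraries was left out (limma adjusted p 0.0604 to 0.0824), as it did under median-of-ratios scaling (0.0619). Gna12, the alpha subunit of G12, rose 1.86 times, to 51.5 TPM ± 3.82 in Lyz2cre, against 27.7 TPM ± 0.657 in WT (SD, n = 3 each; limma adjusted p = 0.00924), with 44.95 TPM in the CD11ccre library.

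The lists of adenosine transport and breakdown (5 tested), nucleotide release (5) and UDP-sugar synthesis and transport (8) held 0 called genes by limma in Lyz2cre, where 6.76% of all tested genes were called, with 0, 3 and 0 at an unadjusted p under 0.05, beside 24.6% of all tested genes. Panx1, the pannexin channel that releases ATP and has been linked to P2X7, stood at 15.04, 12.47 and 15.49 TPM in Lyz2cre, with 12.15 TPM in CD11ccre, against 22.25, 21.83 and 18.43 TPM in WT (limma adjusted p = 0.0998 and 0.120). All of its deleted libraries lay below the WT libraries.

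**Figure D5:**
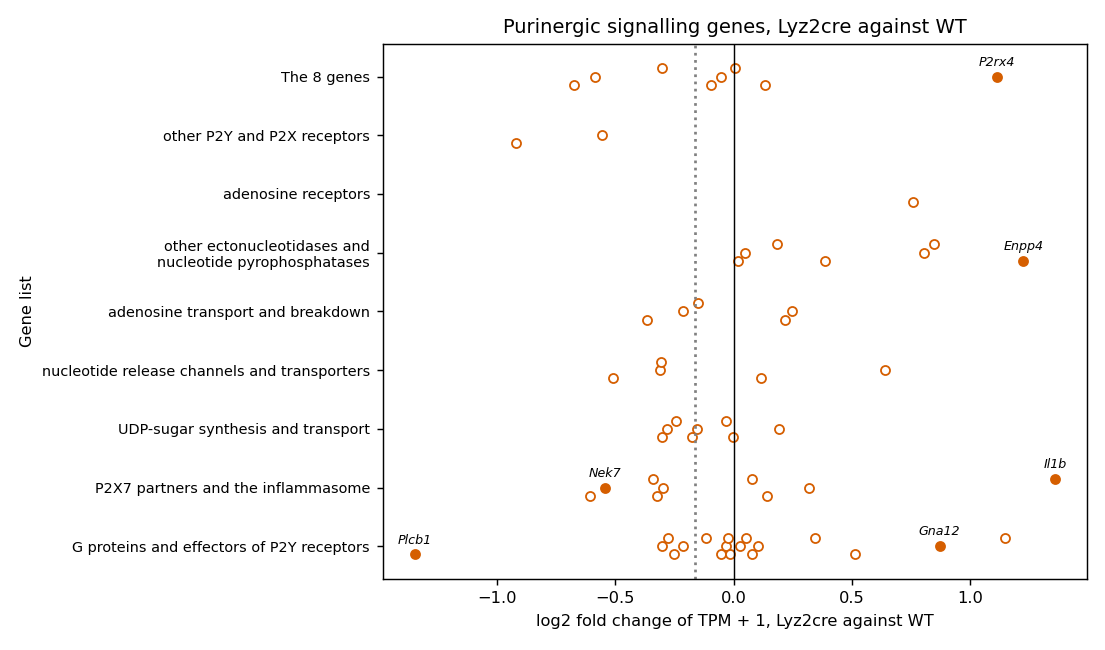
Log2 fold change of TPM + 1 in Lyz2cre against WT for every tested gene of the 8 purinergic genes and of the 8 pathway lists, a list per row (points are offset up and down within a row only to keep them apart); filled points passed an adjusted p of 0.05 and are named, and the dotted line marks the median of all tested genes at -0.16. P2rx4, Enpp4, Il1b and Gna12 are filled to the right of 0 and Nek7 and Plcb1 to the left.

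Of the 10303 other protein-coding genes tested, those whose log2(TPM + 1) followed P2rx4 most closely over the 7 libraries were Ypel2 (Pearson's r = 0.991), Sdc3 (r = 0.988) and Gm10116 (r = 0.985). Those closest to P2ry12 were Uso1 (r = 0.993), Trappc6b (r = 0.991) and Rpa3 (r = 0.988). For P2rx7 they were Emp3, Stxbp2 and Mrps12 (r = 0.981 to 0.976), and for P2ry14 Rars, Smyd5 and Slc35g1 (r = 0.982 to 0.965). For P2ry13 they were Mettl10, Npm1 and Tmem42 (r = 0.970 to 0.951), for P2ry2 Tnrc18, Rtel1 and Il1a (r = 0.975 to 0.957), and for Entpd1 Fer, Spag11b and 2510002D24Rik (r = 0.984 to 0.953). An r of at least 0.9 was reached by 170 genes for P2rx4 and by 400 for P2ry12, but by 13 for P2ry13. With 7 libraries in 3 genotypes these values describe likeness only.

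Markers of other cell types were tested alongside, and some of them moved. Endothelial cells also express P2rx4, and of 7 endothelial markers 1 averaged at least 1 TPM, Vwf, with 88.02, 88.03 and 126 TPM in Lyz2cre, with 71.66 TPM in CD11ccre, against 41.06, 59.47 and 29.43 TPM in WT (limma adjusted p = 0.0393 in Lyz2cre). The Vwf call ended when any of 5 of the 6 Lyz2cre and WT libraries was left out (limma adjusted p up to 0.129), the exception being WT replicate 2. The next highest endothelial marker, Pecam1, averaged 0.541 TPM over the 7 libraries. It averaged 0.367 TPM in Lyz2cre and 0.597 TPM in WT, with overlapping ranges, and had 0.90 TPM in CD11ccre. The summed level of the list was nearly all Vwf. It ran from 88.1 to 127 TPM in Lyz2cre and was 73.1 TPM in CD11ccre, against 30.2 to 59.9 TPM in WT. The part of endothelial RNA in the P2rx4 level was not tested.

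Neutrophils express several P2 receptors. Of 9 neutrophil markers 5 were tested, and they summed to 125 to 168 TPM in Lyz2cre and 151 TPM in CD11ccre, against 54.8 to 107 TPM in WT, while Ly6g, Camp and Ngp were listed at 0 in every library. S100a8, a calprotectin subunit and the marker with the highest mean, rose to 101 TPM ± 23.5 in Lyz2cre, against 24.9 TPM ± 8.7 in WT (SD, n = 3 each; limma adjusted p = 0.00985). The other subunit, S100a9, went the other way without passing, at 4.4 TPM ± 2.94 in Lyz2cre and 19.8 TPM ± 15.7 in WT (limma adjusted p = 0.117). The neutrophil markers thus did not move together. Csf3r, the G-CSF receptor, fell in Lyz2cre and in CD11ccre (limma adjusted p = 0.0392 and 0.0436), calls that ended without any library but Lyz2cre replicate 1 (up to 0.112) and without any but Lyz2cre replicate 3 (up to 0.0934), and with median-of-ratios scaling (0.0585 and 0.0637). Mmp8 rose in CD11ccre (limma adjusted p = 0.0269), a call ended by leaving out WT replicate 1 or 2 or Lyz2cre replicate 2 (up to 0.0639). The part of neutrophil RNA in the P2 receptor levels was not tested.

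Airway epithelium expresses P2ry2. The 9 epithelial markers, led by the club cell gene Scgb1a1, summed to 144 to 330 TPM in Lyz2cre, 242 TPM in CD11ccre and 168 to 264 TPM in WT, and they did not move together. Epcam, an adhesion molecule of epithelial cells, fell to 1.58 TPM ± 0.789 in Lyz2cre and 0.46 TPM in CD11ccre, against 35.9 TPM ± 9.74 in WT (SD, n = 3 each for Lyz2cre and WT; limma adjusted p = 0.00207 and 0.00707). The surfactant genes Sftpb and Sftpa1 averaged 3.82 and 6.18 TPM in Lyz2cre, against 1.57 and 2.60 TPM in WT, and did not pass (limma adjusted p = 0.0932 and 0.138). The part of epithelial RNA in the P2ry2 level was not tested.

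Single markers of other lists fell in Lyz2cre: Batf3 of dendritic cells (limma adjusted p = 0.0374), Ccr2 of monocytes (0.0360), Igkc of B cells (0.0315) and Gpr34 of microglia (0.0161). The Ccr2 and Igkc calls ended when any of the Lyz2cre and WT libraries was left out (limma adjusted p up to 0.101 and 0.0973), the Batf3 call for any but WT replicate 3 (up to 0.109), and the Gpr34 call for WT replicate 1 or 2 or Lyz2cre replicate 3 (up to 0.0602). With median-of-ratios scaling Batf3 and Ccr2 also did not pass (limma adjusted p = 0.0535 and 0.0509). The fibroblast list held 0 called genes of 4 tested by limma in Lyz2cre, where 6.76% of all tested genes were called. At an unadjusted p under 0.05 it held 0 in Lyz2cre, beside 24.6% of all tested genes. No T and NK cell marker averaged 1 TPM, and of the 9 eosinophil, basophil and mast cell markers, all but Mcpt4 were listed at 0 in every library.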

How the data were processed

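Per the labels' protocols, poly(A) RNA was made into directional libraries and sequenced as single reads of 75 bases. For trimming, alignment and quantification the tools listed in the submitters' processing notes are cutadapt 2.3, STAR 2.7.0d and RSEM 1.3.1, with mm10 as the build. The sources used here do not give the annotation or the strand setting. The authors deposited TPM for 47643 genes in 7 libraries, without read numbers. Since TPM has a fixed sum, more RNA from a few genes lowers the values of the rest: Ftl1, Fth1 and Chil3 took 14.4% to 16.3% of the TPM in Lyz2cre, 14.0% in CD11ccre and 4.90% to 5.29% in WT. Lyz2 took a further 50676 TPM in CD11ccre, against 46.62 to 86.25 TPM in the other libraries. Coordinates come from GENCODE M21 (GRCm38), which held 47224 of the gene IDs.

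Libraries were grouped by their titles into Lyz2cre (n = 3), CD11ccre (n = 1) and WT (n = 3). log2(TPM + 1) was fitted with limma 3.58.1 in R 4.3.3, using the trend option (residual degrees of freedom 4, prior 3.35), over genes that averaged 1 TPM or more. Fold changes understate the change of low genes. P-values are two-sided, adjusted by Benjamini-Hochberg over 11397 genes with a threshold of 0.05. The fit was tested on simulated data. Exact permutation tests used SciPy 1.17.1 and cannot go below p = 0.1. Alternatives were pseudocounts of 0.1 and 5, no filter, an average of 5 TPM or more, scaling by median of ratios, by quantiles, over protein-coding genes or without Ftl1, Fth1, Chil3 and Lyz2, no trend, robust fitting, the replicate block and leaving out libraries. The genes and lists were chosen with earlier results of these data known. Named were the 8 genes, tested genes within 1 Mb of Siah2, up to 4 called genes per list, the targets and Lyz2, and the 3 genes most like each member (those of P2ry6 are not reported here). Nt5e, Panx1, P2ry10, P2rx5, Adora3, Nlrp3, Pycard and the single cell type markers were named after their values were seen.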

Additional observations from a re-analysis of the deposited data

Results flagged for a closer look

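Lyz2 differed between the Cre lines, by 9.84 on the log2 scale for CD11ccre against Lyz2cre in limma (adjusted p = 1.31e-06), with 50676 TPM in CD11ccre and 46.62 to 61.89 TPM in Lyz2cre. WT had 72.56 to 86.25 TPM of Lyz2, so CD11ccre stood apart from WT as well, with a log2 fold change of 9.31. None of the 8 purinergic genes differed between the Cre lines at the adjusted threshold.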

How the results depend on the processing

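Of the 8 genes, P2rx4 alone was called in Lyz2cre against WT under all 18 alternatives (log2 fold change 1.04 to 1.3, limma adjusted p 0.00129 to 0.0307), and none was called in CD11ccre against WT or CD11ccre against Lyz2cre under the 17 alternatives each. For P2rx4 in CD11ccre against WT the adjusted p ran from 0.0545 to 0.239. The count of genes called in Lyz2cre against WT (771) became 342 with no filter and 436 with no trend, and ran from 239 to 833 with a library left out. In CD11ccre against WT (329) it became 201 with quantile normalization, 689 with protein-coding genes rescaled, 205 without Ftl1, Fth1, Chil3 and Lyz2 and 122 with no trend, and ran from 94 to 183. In CD11ccre against Lyz2cre (13) it became 210 with no filter and 2 with protein-coding genes rescaled, and ran from 2 to 11. Of the 771 genes, 247 were higher and 524 lower, against 337 higher and 207 lower with median-of-ratios scaling; in CD11ccre 102 were higher and 227 lower, against 154 and 87. With the replicate number as a block, 390, 21 and 3 genes were called in these 3 comparisons. Samples of the same number in Lyz2cre and WT deviated with correlations of -0.01, 0.04 and 0.07, and not every sample was closest to its own number. With 3 libraries per group these correlations cannot decide whether samples of the same number share more than it. The block turned P2ry13 in CD11ccre against Lyz2cre to -0.11.

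Signs turned only for log2 fold changes near 0 that were not called. With median-of-ratios scaling, quantile normalization and leaving out Ftl1, Fth1, Chil3 and Lyz2, Lyz2cre against WT gave 0.13, 0.13 and 0.11 for Entpd1 and 0.084, 0.081 and 0.066 for P2ry13. CD11ccre against WT gave 0.22, 0.24 and 0.13 for P2ry13 and 0.20, 0.16 and 0.11 for P2ry14. Median-of-ratios and quantile normalization gave 0.065 and 0.058 for P2ry6 in CD11ccre against WT and 0.011 and 0.025 for P2rx7 in CD11ccre against Lyz2cre. Rescaled protein-coding genes gave -0.026 for P2ry2 in Lyz2cre against WT. With a library left out, Lyz2cre against WT ran from -0.19 to 0.044 for Entpd1, -0.16 to 0.0076 for P2ry13, -0.040 to 0.24 for P2ry14, -0.19 to 0.20 for P2ry2, -0.036 to 0.24 for Rnf13 and -0.064 to 0.28 for Tsc22d2, and CD11ccre against Lyz2cre ran from -0.10 to 0.066 for P2ry13. The cause was not tested, and fits with the block or fewer libraries have fewer residual degrees of freedom.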
